A study of Mus musculus with 29 samples.

Results

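The metallothionein genes Mt1, Mt2 and Mt3 were found by their platform symbols, as 3 of the 12393 genes that are the single symbol of a probe set. They have 4 of the 22690 probe sets of the table. Mt1 has a pair of them (1422557_s_at and 1451612_at), Mt2 has 1428942_at and Mt3 has 1420575_at. All 4 were measured in all 29 arrays, and none was lost to a filter, since none was applied. The suffix of 1422557_s_at means that its probes match several transcripts, so its signal is uncertain as a measure of Mt1 alone.

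The study profiled total RNA of the prefrontal cortex (PFC, 18 arrays) and the caudate-putamen (CPu, 11 arrays), the dorsal striatum of the mouse. Mice were of 3 strains: TgS, which carries the human acetylcholinesterase variant AChE-S, TgR, which carries the human AChE-R, and FVB/N, the parent strain of both. MPTP, a toxin that is turned into a poison of dopamine neurons, was injected 4 times at 20 mg/kg with 2 h between doses (80 mg/kg in all), and tissue was taken 4 days later. The other arm is labelled naive, although the protocol describes saline injections. MPTP-exposed mice gave 2 arrays of each strain and region, except TgR CPu with 1, and naive mice gave 4 PFC arrays and 2 CPu arrays of each strain. The protocol counts 6 mice for each arm of each strain, 36 in all. It does not say how many mice stand behind an array, which promoters drive the transgenes, or the sex and age of the mice, so the p-values measure the spread between arrays only.

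The labels and the signals call for care with some arrays. CPu FVB/N naive replicate 2 is naive by its title and its treatment label, but its description field speaks of MPTP exposure. Its signal for Lcn2, an acute-phase protein gene, was 4.79 on the log2 scale, against 6.35 to 9.81 in the 5 MPTP CPu arrays and 4.64 to 5.51 in all naive arrays. Naive PFC replicates 1 and 2 of all strains (6 arrays) stood apart from the other 23. The X-inactivation RNA Xist read 8.62 to 10.61 in these 6 arrays and 6.78 to 7.24 elsewhere. The Y-linked Eif2s3y read 3.42 to 3.83 in them and 8.41 to 9.20 elsewhere. The control probe set bioB read 6.16 to 6.61 in naive PFC replicates 3 and 4 and 6.88 to 7.51 in MPTP PFC. It read 6.90 to 7.56 in naive PFC replicates 1 and 2 and 5.82 to 6.61 in CPu. The control dap read 7.56 to 7.85, 7.76 to 8.26, 3.98 to 8.52 and 7.64 to 8.27 in the same order. The part of the bioB difference in the comparisons with replicates 3 and 4 was not tested. In FVB/N naive PFC replicates 1 and 2, Gdpd3, a gene whose signal differs between the strains, read 5.70 and 5.63, against 9.76 to 10.37 in the other FVB/N arrays. PFC differences after MPTP and region differences in naive mice are therefore given against replicates 1 and 2 and against replicates 3 and 4. They come from 1 model, except where a mean for each naive pair in each strain is stated. Strain differences in naive PFC or in the PFC effect of MPTP are averaged over both pairs. PFC TgS naive replicate 2 read Gdpd3 at 8.32, against 5.34 to 6.40 in the other TgS arrays. In MPTP mice the dopamine receptor gene Drd2 was lower in PFC than in CPu by -4.77 ± 0.19, and Neurod6, a factor of cortical neurons, was higher by 2.73 ± 0.24. Drd2 read 6.97 to 8.16 in naive PFC replicates 1 and 2 and 6.25 to 6.69 in all other PFC arrays, and the part of striatal RNA in the comparisons with replicates 1 and 2 was not tested.

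Metallothioneins are small cysteine-rich proteins that bind zinc and copper and take up reactive oxygen species. In the brain Mt1 and Mt2 are made mainly by astrocytes, and they are switched on by zinc through the metal-sensing factor MTF1, by glucocorticoids, by cytokines acting through STAT3 and by oxidative stress. Mt3, once called growth inhibitory factor, is typical of the nervous system, is made by neurons as well as astrocytes and responds little to metals. The genes lie side by side on mouse chromosome 8, in the order Mt4, Mt3, Mt2 and Mt1, with the non-coding Gm39227 between Mt3 and Mt2.

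Because MTF1 acts through metal response elements, the sequence around each annotated start is shown, from 250 bases before it to 50 bases past it (RefSeq, GRCm38.p6, plus strand). Capitals mark the core of a metal response element, TGCACNC or TGCGCNC, found on either strand. The windows are chr8:94178839-94179138 for Mt1, chr8:94172368-94172667 for Mt2 and chr8:94152357-94152656 for Mt3.
Mt1: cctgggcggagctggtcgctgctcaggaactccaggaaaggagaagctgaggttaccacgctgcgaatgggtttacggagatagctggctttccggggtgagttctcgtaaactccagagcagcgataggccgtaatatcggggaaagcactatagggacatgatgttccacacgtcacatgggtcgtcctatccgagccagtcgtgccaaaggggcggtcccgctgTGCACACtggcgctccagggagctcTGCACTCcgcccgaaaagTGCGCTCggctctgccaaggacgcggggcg
Mt2: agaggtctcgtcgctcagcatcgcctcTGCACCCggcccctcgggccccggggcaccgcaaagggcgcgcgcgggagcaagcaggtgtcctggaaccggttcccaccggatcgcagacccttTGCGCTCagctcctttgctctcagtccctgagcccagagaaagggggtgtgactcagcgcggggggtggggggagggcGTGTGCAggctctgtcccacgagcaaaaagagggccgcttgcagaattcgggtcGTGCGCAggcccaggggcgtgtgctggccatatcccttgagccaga
Mt3: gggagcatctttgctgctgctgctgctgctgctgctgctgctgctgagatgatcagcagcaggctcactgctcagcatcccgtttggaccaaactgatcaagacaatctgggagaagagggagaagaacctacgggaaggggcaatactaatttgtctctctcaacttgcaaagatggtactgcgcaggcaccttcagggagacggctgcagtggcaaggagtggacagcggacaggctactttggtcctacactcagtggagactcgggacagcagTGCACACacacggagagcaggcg

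Mt2 held 4 such cores, Mt1 held 3 and Mt3 held 1. The Mt1 cores began at positions -23, 3 and 21 relative to the start, and those of Mt2 at -223, -128, -50 and 5, the last pair on the opposite strand. The single Mt3 core began at 28. At least 1 core was found in 25.7% of the 32851 windows of the same length, at least 3 in 1.97% and at least 4 in 0.518%. Mt2 also held the core of an antioxidant response element (TGACNNNGC, the site of the oxidative stress factor NRF2) at -79 to -71, as did 12.4% of windows. A STAT core (TTCNNNGAA), an E-box (CACGTG) and a full palindromic glucocorticoid response element were searched on both strands and had no match in the 3 windows. Of all windows, 8.30%, 7.15% and 0.0091% held them in the same order, so 3 windows may hold no match by those shares alone. No matches overlapped each other, and a match is a run of letters, not a shown binding site. The positions and counts hold for the annotated starts only. Sites outside the windows were not searched, and whether these starts are the ones used in PFC or CPu was not tested. The counts therefore do not compare the full promoters of the genes.

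**Figure D1:**
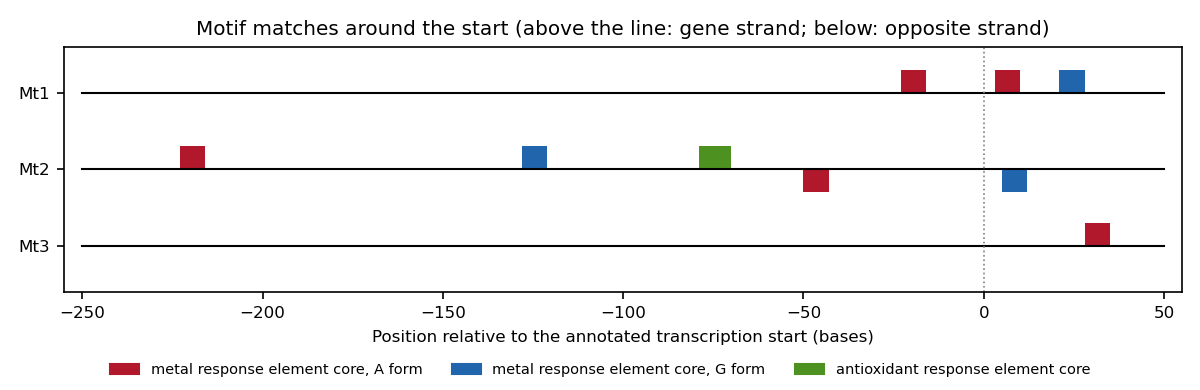
Matches to metal response element cores (red, the form with A, TGCACNC; blue, the form with G, TGCGCNC) and to the antioxidant response element core (green) from 250 bases before to 50 bases past the annotated start of each gene, in bases. Boxes above a line are on the gene strand and boxes below it on the opposite strand; Mt2 has 4 metal response element cores, Mt1 has 3 and Mt3 has 1.

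Across the 29 arrays the log2 signal of Mt1 (1422557_s_at) lay between 12.20 and 13.31, of Mt2 between 11.64 and 13.05 and of Mt3 between 11.75 and 12.96. The other Mt1 probe set, 1451612_at, lay between 6.49 and 7.32, below the median signal of every array (7.61 to 7.78). The highest signal that any probe set reached on an array was 14.13 to 14.28. Detection calls were not analysed here, so the background level is unknown, and in bulk tissue fewer cells of a type cannot be told apart from less RNA per cell.

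Over the 12 groups, Mt1 (1422557_s_at) and Mt2 shared the 2 highest places and the lowest, and Mt3 had others there. Mt1 (1422557_s_at) was highest in MPTP-exposed CPu of TgS mice (13.18 and 13.31) and of FVB/N mice (13.21 and 13.20), and lowest in naive FVB/N PFC (12.21, 12.20, 12.64 and 12.46). From the third place downward, each pair of neighbours in that order overlapped. Mt2 was highest in MPTP-exposed CPu of FVB/N mice (12.99 and 13.05) and of TgS mice (12.87 and 13.04), which overlapped, and again lowest in naive FVB/N PFC (11.67, 11.64, 12.21 and 12.00). The Mt2 order also had a gap between MPTP FVB/N PFC (12.78 and 12.66) and the next group, naive TgS CPu (12.64 and 12.62).

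Mt3 was highest in the PFC of MPTP-exposed mice, with 12.92 and 12.92 in FVB/N, 12.84 and 12.87 in TgR, and 12.96 and 12.75 in TgS. It was lowest in naive TgS PFC, at 11.92, 11.75, 11.84 and 11.86, next to naive TgS CPu at 12.16 and 12.05. These lowest places did not overlap each other. Within naive PFC, Mt3 spread widely in FVB/N (12.79, 12.78, 12.12 and 11.97) and TgR (12.56, 12.60, 12.08 and 12.13), with replicates 1 and 2 above replicates 3 and 4 in both.

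Over the 29 arrays, Mt1 (1422557_s_at) and Mt2 correlated at r = 0.97, and Mt3 correlated with Mt1 (1422557_s_at) at 0.24 and with Mt2 at 0.16. Mt1 (1451612_at) correlated at 0.65 with the other Mt1 probe set and at 0.63 with Mt2. The r of Mt1 (1422557_s_at) with Mt2 was 0.96 within the 18 PFC arrays and 0.96 within the 11 CPu arrays. Arrays share strains, regions and treatments, and these values describe the arrays only.

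**Figure D2:**
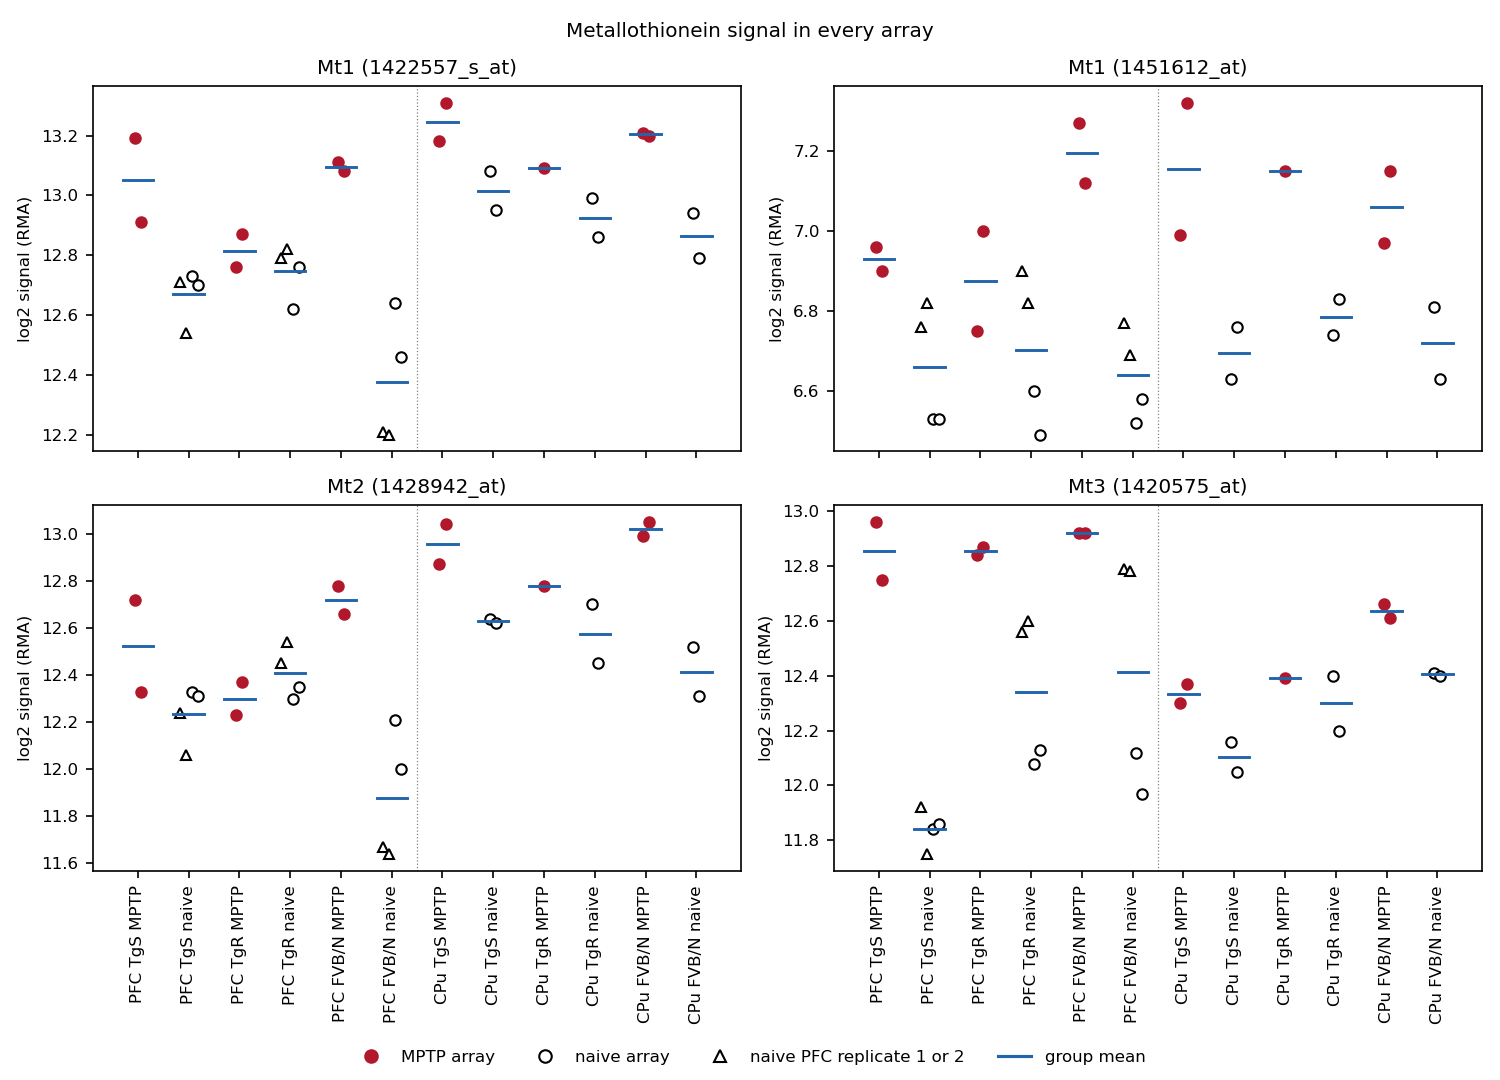
Log2 signal (vertical axis) of the 4 metallothionein probe sets in each of the 29 arrays, by group, with PFC left of the dotted line and CPu right of it. Filled red points are MPTP arrays, open points naive arrays, triangles naive PFC replicates 1 and 2, and blue bars group means; Mt3 is highest in MPTP PFC (12.75 to 12.96), whereas Mt1 (1422557_s_at) and Mt2 are highest in MPTP CPu.

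In the caudate-putamen, the striatal target of the dopamine neurons that MPTP injures, Mt2 and Mt1 (1451612_at) were higher 4 days after MPTP. Averaged over strains, Mt2 was 0.38 ± 0.09 log2 units higher (SE; 1.30-fold; limma with Benjamini-Hochberg adjustment over 22626 probe sets, adjusted p = 0.0493). Mt1 (1451612_at) was 0.39 ± 0.06 higher (1.31-fold, adjusted p = 0.0034). Mt1 (1422557_s_at) differed by 0.25 ± 0.07 (adjusted p = 0.122) and Mt3 by 0.18 ± 0.09 (adjusted p = 0.463), which did not pass the threshold of 0.05. Thus 2 of 4 probe sets were called higher, where 0.884% of all probe sets tested were called higher and 1.43% were called in either direction.

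The array values show the size of these steps. Mt2 read 12.87 and 13.04 in MPTP TgS CPu, 12.78 in MPTP TgR CPu, and 12.99 and 13.05 in MPTP FVB/N CPu. In naive CPu it read 12.64 and 12.62 in TgS, 12.70 and 12.45 in TgR, and 12.52 and 12.31 in FVB/N. All 5 MPTP arrays were above all 6 naive arrays, the nearest being 12.78 and 12.70.

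The same held for both Mt1 probe sets. Mt1 (1422557_s_at) spanned 13.09 to 13.31 in the 5 MPTP arrays and 12.79 to 13.08, median 12.95, in the 6 naive arrays. Mt1 (1451612_at) spanned 6.97 to 7.32 in MPTP arrays and 6.63 to 6.83, median 6.75, in naive arrays. Of all probe sets, 1.08% were higher in this way without overlap. Mt3, at 12.30 to 12.66 in MPTP arrays and 12.05 to 12.41 in naive arrays, overlapped.

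By strain, the Mt2 difference in CPu was 0.33 ± 0.15 in TgS, 0.21 ± 0.18 in TgR and 0.61 ± 0.15 in FVB/N, none of them called (limma, adjusted p = 0.436, 1 and 0.124). The only call within a strain was Mt1 (1451612_at) in TgS, 0.46 ± 0.10 higher (adjusted p = 0.0267), where 1.41% of probe sets were called. In FVB/N and TgR no metallothionein probe set was called, against 0.265% and 0.110% of all, and 3 and 1 of them had an unadjusted p under 0.05, as had 6.04% and 4.21% of all.

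The difference of the Mt2 effect between TgS and FVB/N CPu (-0.28 ± 0.21) and between TgR and FVB/N CPu (-0.40 ± 0.24) was not called (adjusted p = 0.998 and 0.999). The 95% interval of that TgR difference, from -0.90 to 0.10, is wide.

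The Mt2 call in CPu lies at the threshold, and with the replicate number as a block it was not made (0.37, limma adjusted p = 0.0876). With no set term neither Mt2 (adjusted p = 0.133) nor Mt1 (1451612_at, adjusted p = 0.0647) was called in CPu, and the TgS call of Mt1 (1451612_at) was lost with no set term (adjusted p = 0.266) and with each region fitted alone (adjusted p = 0.0835). The Mt2 call was made in 7 of the 28 fits that left out 1 array each. Leaving out the FVB/N naive array with conflicting labels gave Mt2 a difference of 0.34 and an adjusted p of 0.157, and Mt1 (1451612_at) 0.36 and 0.0152. Leaving out the 6 naive PFC arrays that stand apart, which only enter the estimate of spread here, left the differences as they were and gave adjusted p = 0.0080 for Mt2, 0.0040 for Mt1 (1451612_at), 0.0279 for Mt1 (1422557_s_at) and 0.0488 for Mt3.

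In the prefrontal cortex all 4 probe sets were called higher after MPTP against either pair of naive arrays, in the mean of strains. This share has to be read against a wide background: 60.9% of probe sets were called against replicates 1 and 2 (22.9% higher) and 38.8% against replicates 3 and 4 (21.9% higher). Mt3 had the largest difference of the 4 against replicates 3 and 4, 0.88 ± 0.08 (1.84-fold, limma adjusted p = 3.38e-07), and 0.48 ± 0.08 against replicates 1 and 2 (1.39-fold, adjusted p = 0.0001021). Mt1 (1422557_s_at) was 0.34 ± 0.07 higher against replicates 3 and 4 (adjusted p = 0.0007) and 0.44 ± 0.07 against replicates 1 and 2 (adjusted p = 2.48e-05). Mt2 was 0.27 ± 0.09 (adjusted p = 0.0206) and 0.42 ± 0.09 (adjusted p = 0.0004989) higher, and Mt1 (1451612_at) 0.46 ± 0.06 (adjusted p = 8.32e-06) and 0.21 ± 0.06 (adjusted p = 0.0061) higher, in the same order.

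For Mt3, the 6 MPTP PFC arrays spanned 12.75 to 12.96, median 12.90, and the 6 naive arrays of replicates 3 and 4 spanned 11.84 to 12.13, median 12.03. These did not overlap, as was so in the upward direction for 12.5% of all probe sets, and Mt1 (1451612_at) did not overlap either (6.75 to 7.27 in MPTP arrays and 6.49 to 6.60 in naive arrays). The 6 naive arrays of replicates 1 and 2 spanned 11.75 to 12.79, median 12.58, and overlapped the MPTP arrays. Of these, FVB/N at 12.79 and 12.78 came close to the MPTP FVB/N arrays at 12.92 and 12.92, whereas TgS at 11.92 and 11.75 lay well below the MPTP TgS arrays at 12.96 and 12.75. In a model with a mean of its own for each pair of naive arrays in each strain, added after the values were seen, the Mt3 step against replicates 1 and 2 was 1.02 in TgS, 0.27 in TgR and 0.14 in FVB/N (limma adjusted p = 6.41e-09, 0.0079 and 0.228), and against replicates 3 and 4 it was 1.00, 0.75 and 0.88 (adjusted p = 2.07e-07, 1.32e-05 and 4.49e-06).

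The prefrontal differences of Mt1 (1422557_s_at) and Mt2 were largest in FVB/N mice and smallest in TgR mice. Mt2 read 12.78 and 12.66 in MPTP FVB/N PFC, against 11.67, 11.64, 12.21 and 12.00 in naive FVB/N PFC, with no overlap. In TgR it read 12.23 and 12.37 after MPTP, against 12.45, 12.54, 12.30 and 12.35 in naive mice, which overlapped. In TgS it read 12.72 and 12.33 after MPTP, against 12.24, 12.06, 12.33 and 12.31 in naive mice, which met at 12.33. The share of all probe sets without overlap within a strain was not counted, so these gaps describe the arrays only. With a mean for each naive pair in each strain, the Mt2 difference against replicates 1 and 2 was 0.38 in TgS, -0.20 in TgR and 1.07 in FVB/N (SE 0.12 each, limma adjusted p = 0.0122, 0.156 and 3.36e-06). Against replicates 3 and 4 it was 0.20, -0.025 and 0.62 (adjusted p = 0.184, 0.909 and 0.0019).

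Mt1 (1422557_s_at) followed the same order. It read 13.19 and 12.91 in MPTP TgS PFC, against 12.71, 12.54, 12.73 and 12.70 in naive TgS PFC, and 12.76 and 12.87 in MPTP TgR PFC, against 12.79, 12.82, 12.62 and 12.76 in naive TgR PFC. It read 13.11 and 13.08 in MPTP FVB/N PFC, against 12.21, 12.20, 12.64 and 12.46 in naive FVB/N PFC. TgS and FVB/N did not overlap between treatments, and TgR did, and the share of all probe sets without such overlap was again not counted. With a mean for each naive pair in each strain, the difference against replicates 1 and 2 was 0.43 in TgS, 0.010 in TgR and 0.89 in FVB/N (SE 0.094 each, limma adjusted p = 0.0011, 0.933 and 2.55e-06). Against replicates 3 and 4 it was 0.34, 0.12 and 0.55 (adjusted p = 0.0100, 0.388 and 0.0011).

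The planned model instead assumes that the naive pairs differ by the same amount in every strain, so its strain values are not the differences from the means of those pairs. For Mt2 in TgR it gave -0.04 against replicates 1 and 2 and -0.18 against replicates 3 and 4. Counted by strain in that model against naive replicates 1 and 2, 3 of 4 probe sets were called in TgS, 0 in TgR and 3 in FVB/N, where 40.6%, 43.7% and 25.5% of all probe sets were called. In TgR, 1 of the 4 had an unadjusted p under 0.05, as had 52.9% of all probe sets, and 1 was called with a mean for each pair. Against replicates 3 and 4 the counts were 3, 2 and 4, beside 28.5%, 19.7% and 10.3% of all probe sets. The TgR calls were Mt3 (0.71 ± 0.13) and Mt1 (1451612_at, 0.30 ± 0.09).

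The difference between strains was tested directly. The prefrontal MPTP effect in TgR minus that in FVB/N was -0.95 ± 0.18 for Mt2 (95% interval -1.34 to -0.56) and -0.65 ± 0.14 for Mt1 (1422557_s_at), and neither was called (limma adjusted p = 0.0974 and 0.187). Of all probe sets, 0.00442% were called in this comparison and 0% in TgS against FVB/N, while 3 and 4 of the 4 metallothionein probe sets had an unadjusted p under 0.05, as had 8.25% and 12.4% of all. With a mean for each pair of naive arrays in each strain, both were called (adjusted p = 0.0019 and 0.0080). The shares above belong to the planned model, and the share of all probe sets called with these means is not given here. The Mt3 effect in TgS minus that in FVB/N was 0.51 ± 0.18 (adjusted p = 0.295, and 0.0026 with those means). These values include naive FVB/N replicates 1 and 2, whose Gdpd3 signal departs from their strain label. In a fit without the 6 arrays of naive PFC replicates 1 and 2 none of the 4 probe sets was called in either comparison.

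Lcn2, which like Mt1 and Mt2 can be switched on by cytokines, read 9.74 and 10 in MPTP TgS PFC, 5.67 and 6.57 in MPTP TgR PFC, and 10.27 and 9.21 in MPTP FVB/N PFC. Naive arrays of both regions read 4.64 to 5.51, so both TgR arrays lay below the other MPTP PFC arrays and above every naive array. The part of Lcn2 or of its regulators in the metallothionein values was not tested.

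**Figure D3:**
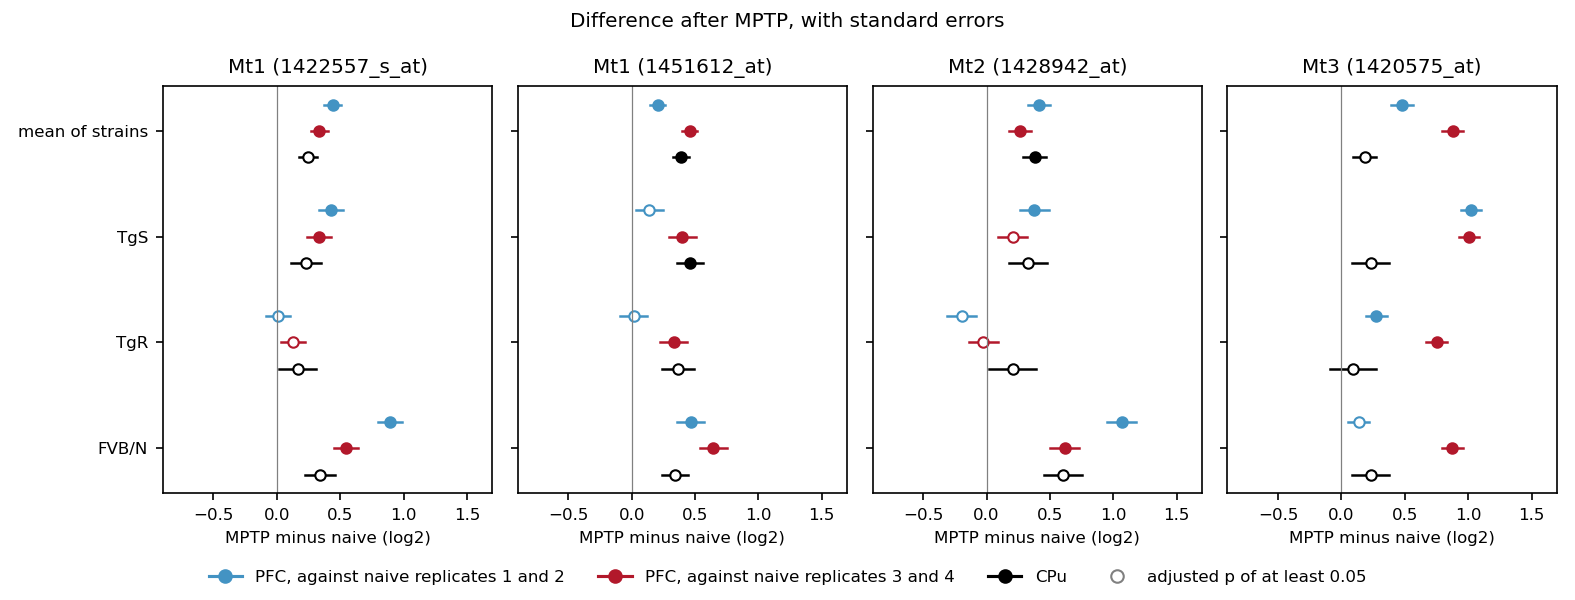
MPTP minus naive differences in log2 units (horizontal axis) of the 4 metallothionein probe sets, with standard errors (bars), for the mean of strains and for each strain. Blue and red points are PFC against naive replicates 1 and 2 and against replicates 3 and 4, black points are CPu, and open points have an adjusted p of at least 0.05; for Mt2 in PFC, TgR lies at -0.20 and -0.025 and FVB/N at 1.07 and 0.62. The strain values in PFC come from the model with a mean for each naive pair in each strain, and the others from the planned model.

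Whether MPTP acted more in one region than in the other was asked of the same model. The Mt3 effect was larger in PFC than in CPu by 0.69 ± 0.12 against naive replicates 3 and 4 (limma adjusted p = 0.0011), a comparison in which 18% of probe sets were called. Against replicates 1 and 2 the difference was 0.29 ± 0.12 and was not called (adjusted p = 0.0618), where 43.3% of probe sets were called. For Mt1 (1422557_s_at), Mt1 (1451612_at) and Mt2 the effect in PFC minus that in CPu ran from -0.18 to 0.20, and none was called against either pair.

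The regions themselves differed. Among MPTP-exposed mice, Mt3 was 0.42 ± 0.09 higher in PFC than in CPu (limma adjusted p = 0.0008), with 12.75 to 12.96 in 6 PFC arrays and 12.30 to 12.66 in 5 CPu arrays, which did not overlap, as was so for 14.7% of probe sets in that direction. Mt2 was lower in PFC by -0.40 ± 0.09 (adjusted p = 0.0017), with 12.23 to 12.78 in PFC and 12.78 to 13.05 in CPu, which met at 12.78. Mt1 (1422557_s_at) was lower by -0.19 ± 0.07 (adjusted p = 0.0397), a call lost when any 1 of 7 arrays was left out, and Mt1 (1451612_at) differed by -0.12 ± 0.06 (adjusted p = 0.138). Thus 3 of 4 were called, where 43.0% of all probe sets were.

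Among naive mice, Mt1 (1422557_s_at) and Mt2 were also lower in PFC, against either pair. The differences were -0.39 ± 0.07 and -0.44 ± 0.09 with replicates 1 and 2 (limma adjusted p = 7.08e-05 and 0.0002551), and -0.28 ± 0.07 and -0.29 ± 0.09 with replicates 3 and 4 (adjusted p = 0.0022 and 0.0110). Mt3 was 0.13 ± 0.08 different with replicates 1 and 2, which was not called (adjusted p = 0.190), and lower by -0.27 ± 0.08 with replicates 3 and 4 (adjusted p = 0.0142). Mt1 (1451612_at) differed by 0.06 ± 0.06 (adjusted p = 0.397) and -0.19 ± 0.06 (adjusted p = 0.0140). In all, 60.1% of probe sets were called with replicates 1 and 2 and 42.1% with replicates 3 and 4.

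Markers of other cells differed between the regions too. Of 17 astrocyte markers, 3 were higher and 8 lower in naive PFC than in naive CPu with replicates 1 and 2, 1 was higher and 9 lower with replicates 3 and 4, and 0 were higher and 7 lower in MPTP PFC than in MPTP CPu. Of 11 choroid plexus markers, 9, 10 and 9 were lower in the same order and none was higher. Of all probe sets, 25.2%, 23.9% and 23.2% were called lower. The mean signal of the choroid plexus markers was 5.56 to 6.00 in naive PFC arrays and 6.43 to 7.86 in naive CPu arrays, and 5.55 to 5.74 in MPTP PFC arrays and 6.32 to 7.62 in MPTP CPu arrays. Their part in the metallothionein values was not tested.

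Between strains, naive PFC gave calls that were not made without replicates 1 and 2. Over all 4 replicates, Mt3 was lower in TgS than in FVB/N by -0.57 ± 0.10 (limma adjusted p = 0.0031) and lower in TgS than in TgR by -0.50 ± 0.10 (adjusted p = 0.0043). Mt2 was 0.36 ± 0.11 higher in TgS than in FVB/N (adjusted p = 0.0375) and 0.53 ± 0.11 higher in TgR than in FVB/N (adjusted p = 0.0294). Mt1 (1422557_s_at) was 0.29 ± 0.08 higher in TgS (adjusted p = 0.0298) and 0.37 ± 0.08 higher in TgR (adjusted p = 0.0370), each against FVB/N. Probe sets called numbered 3 of 4 for TgS minus FVB/N, 2 of 4 for TgR minus FVB/N and 1 of 4 for TgS minus TgR, against a background of 10.9%, 2.26% and 18.6%.

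In a fit without the 6 arrays of replicates 1 and 2, none of these calls was made. The Mt3 difference between TgS and FVB/N became -0.19 (limma adjusted p = 0.182) and that between TgS and TgR -0.26 (adjusted p = 0.0814). The Mt2 differences from FVB/N became 0.21 in TgS (adjusted p = 0.313) and 0.22 in TgR (adjusted p = 0.687). With the replicate number as a block, Mt2 in TgS (adjusted p = 0.0511) and Mt1 (1422557_s_at) in TgR (adjusted p = 0.0578), both against FVB/N, were no longer called. Without only the pair of FVB/N arrays, Mt3 in TgS minus TgR was -0.50 and called (adjusted p = 0.0011), and no probe set was called against FVB/N.

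In naive CPu the Mt3 values were 12.16 and 12.05 in TgS, 12.40 and 12.20 in TgR, and 12.41 and 12.40 in FVB/N, and TgS minus FVB/N, at -0.30 ± 0.15, was not called (adjusted p = 0.362). Neurod6 moved with this comparison, at 5.13 and 5.61 in naive TgS CPu, 6.52 and 6.99 in naive TgR CPu, and 8.37 and 7.61 in naive FVB/N CPu, and the part of cortical RNA in it was not tested. The limma model called no metallothionein probe set between strains in CPu of either treatment or in MPTP PFC, where the share of all probe sets called was 0.362% (TgS against FVB/N), 0.212% (TgR against FVB/N) and 1.14% (TgS against TgR) in MPTP PFC. In the same order it was 2.19%, 0% and 0.773% in naive CPu and 0.694%, 1.04% and 1.07% in MPTP CPu. At an unadjusted p under 0.05 there were 4 differences, all in MPTP PFC: TgR minus FVB/N in Mt1 (1422557_s_at), at -0.28, in Mt1 (1451612_at), at -0.32, and in Mt2, at -0.42, and TgS minus FVB/N in Mt1 (1451612_at), at -0.27. Of all probe sets, 7.35% for TgR and 5.69% for TgS passed that threshold against FVB/N.

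Other genes of metal and stress handling were counted beside them. In CPu after MPTP, 0 of 28 zinc and copper genes and 0 of 13 iron genes were called in either direction. Their medians were 0.003 and 0.007 log2 units, against 0.012 over all probe sets. Of all probe sets, 1.43% were called in either direction and 0.884% higher, so lists of this size may hold no call by that share alone. Mtf1, the zinc sensor, differed by -0.03 ± 0.20 in probe set 1418333_at (limma adjusted p = 0.976). Its other probe set, 1429170_a_at, read 6.62 to 6.80 in MPTP CPu arrays and 6.80 to 6.96 in naive CPu arrays, with no test given here. Slc30a1, the zinc exporter that MTF1 also switches on, differed by -0.06 ± 0.06 (adjusted p = 0.806). Of 12 NRF2 target genes, 1 was called higher, the glutathione transferase Gstm1 (0.32 ± 0.07, adjusted p = 0.0204).

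Genes switched on by glucocorticoids and by STAT3 had calls in CPu, where 0.884% of all probe sets were called higher. Of 18 glucocorticoid-induced genes, 8 were called higher and none lower, with a median of 0.42. Among them were Sgk1, a kinase that regulates ion transport (0.77 ± 0.09), Pdk4, a brake on pyruvate oxidation (0.95 ± 0.14), and Plin4, a lipid droplet coat protein (1.33 ± 0.21). Of 16 STAT3 and acute-phase genes, 4 were called higher and none lower, with a median of 0.16: Lcn2 (3.46 ± 0.21), Lrg1 (1.12 ± 0.13), Osmr, the oncostatin M receptor (0.86 ± 0.11), and the transcription factor Cebpd (1.10 ± 0.17). The Gstm1 call rests in part on the CPu array with conflicting labels, without which its group keeps 1 array. Without the 6 arrays of naive PFC replicates 1 and 2, the glucocorticoid and STAT3 counts were 12 of 18 and 7 of 16. In that fit 4.54% of all probe sets were called in either direction, against 1.43% in the full fit.

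Markers of cell types in CPu gave these counts beside the metallothionein values. Of all probe sets, 0.884% were called higher and 0.544% lower. Of 17 astrocyte markers, 1 was called higher (the glutamate transporter Slc1a2, 0.40 ± 0.06) and 1 lower (the water channel Aqp4, -0.41 ± 0.07), and Gfap, the filament of reactive astrocytes, differed by 0.55 ± 0.14 (limma adjusted p = 0.0602). The mean signal of the 17 markers was 10.77 to 10.93 in MPTP arrays and 10.73 to 10.82 in naive arrays. Of 14 microglial markers 9 were called higher, among them the complement subunit C1qc (1.00 ± 0.13). Of 15 meningeal and fibroblast markers 9 were called lower, and their mean signal was 7.24 to 7.78 in MPTP arrays and 7.67 to 8.23 in naive arrays. None of 11 choroid plexus markers was called, with a median of -0.50 and a mean signal of 6.32 to 7.62 in MPTP arrays and 6.43 to 7.86 in naive arrays. The part of these cell types in the Mt1 and Mt2 values was not tested.

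In PFC after MPTP the lists depended on the naive pair, and the share of all probe sets called was 38.8% (21.9% higher) against replicates 3 and 4 and 60.9% (22.9% higher) against replicates 1 and 2. Zinc and copper genes had 9 higher and 2 lower of 28 against replicates 3 and 4, and 4 higher and 8 lower against replicates 1 and 2, so the share of them called was near or under those of all probe sets. Glucocorticoid-induced genes had 14 and 12 of 18 higher, and none lower, in that order. STAT3 and acute-phase genes had 11 higher and 1 lower of 16, then 6 higher and 2 lower. Astrocyte markers had 7 higher and 2 lower of 17, then 4 higher and 3 lower, and Gfap was 1.03 ± 0.13 higher against replicates 3 and 4 but differed by -0.08 ± 0.13 (limma adjusted p = 0.607) against replicates 1 and 2. Endothelial and mural markers, 11 of 18 higher against replicates 3 and 4, were 4 higher and 6 lower against replicates 1 and 2.

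Mtf1 differed between its probe sets in naive PFC. Probe set 1418333_at read 9.25 and 8.89 in TgS naive PFC replicates 1 and 2 and 7.11 to 7.64 in all other arrays, while its other probe set, 1429170_a_at, read 6.50 and 6.65 in those arrays. In these 2 arrays Mt1 (1422557_s_at) read 12.71 and 12.54, against 12.73 and 12.70 in TgS naive PFC replicates 3 and 4, and Mt2 read 12.24 and 12.06, against 12.33 and 12.31.

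**Figure D4:**
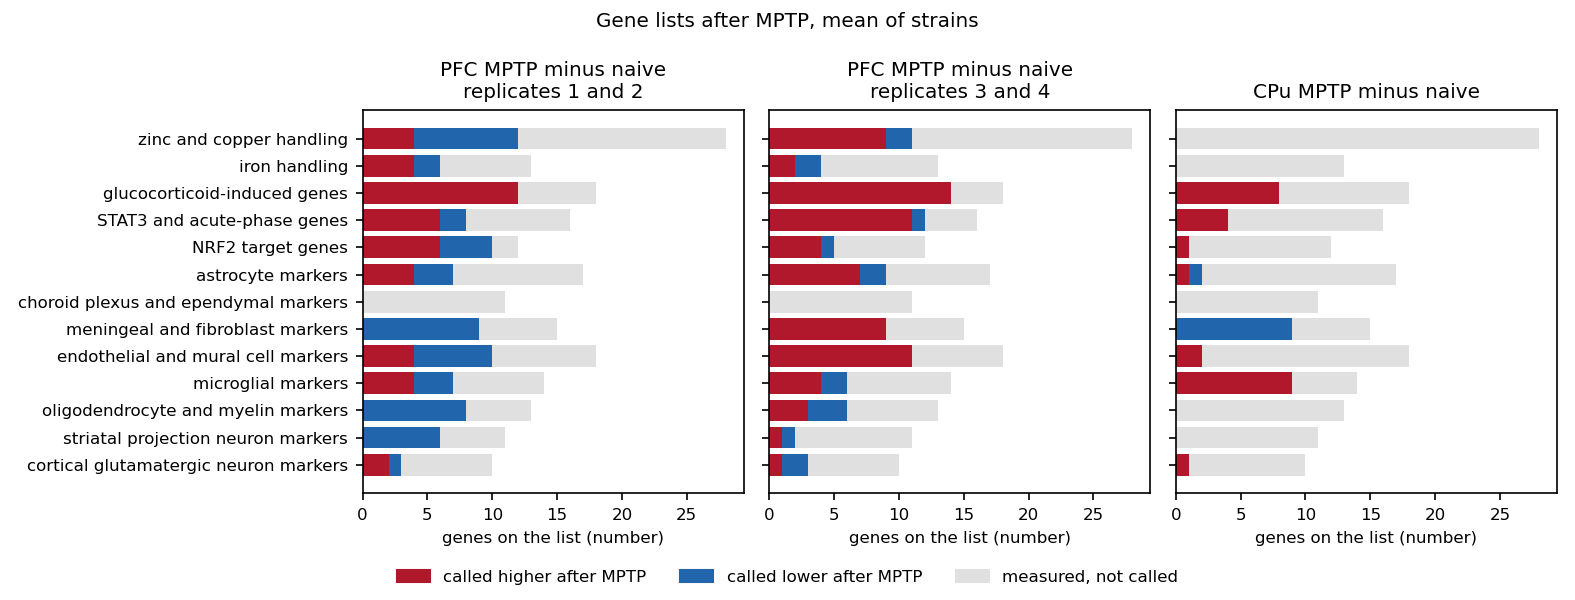
Number of genes on each list (horizontal axis) that were called higher (red) or lower (blue) after MPTP, or measured and not called (grey), in the mean of strains, for PFC against naive replicates 1 and 2, PFC against naive replicates 3 and 4, and CPu. In CPu, 8 of 18 glucocorticoid-induced genes were called higher, beside 0.884% of all probe sets. There, 0 of 28 zinc and copper genes were called, beside 1.43% of all probe sets in either direction, so a list of this size may hold no call by that share alone.

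The probe sets with the pattern most like each metallothionein were named by Pearson correlation over the 29 arrays, as a description, with the metallothioneins themselves left out of the ranking. For Mt1 (1422557_s_at) and Mt2 the most alike was Aass, an enzyme of lysine breakdown (r = 0.88 and 0.89), followed in both lists by Gstm1, Cklf, a chemokine-like factor, and Atp6v0e, a subunit of the vacuolar proton pump (0.85 to 0.88). For Mt3 they were Slc25a42, a mitochondrial carrier (r = 0.95), Cyp46a1, the neuronal cholesterol hydroxylase (0.93), and Ptov1 (0.93). For Mt1 (1451612_at) they were Pnpla7, a lysophospholipase (0.90), and Ptprc, the leukocyte antigen CD45 (0.85). Within the 11 CPu arrays Mt2 was most like Ivd, an enzyme of leucine breakdown (0.95), and Klf15, a glucocorticoid-induced transcription factor (0.94), and Lcn2 was also among the 5 most alike (0.91). The arrays behind these values share regions, treatments and sets.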

How the data were processed

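Total RNA of mouse PFC and CPu was hybridised to Affymetrix arrays (29 samples, 12 groups from the labels). The authors deposited log2 signals of probe sets. RMA, the Affymetrix Expression Console and Affymetrix Power Tools are named, per the submitters' processing notes, with no settings or versions. Values were used as deposited. The 64 control probe sets were left out, which left 22626, of which 20380 have 1 symbol, 691 several and 1555 none in the platform annotation.

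A linear model (limma 3.58.1, R 4.3.3) had 12 group means and a term for naive PFC replicates 3 and 4, whose source label spells the region otherwise, with 16 residual degrees of freedom. Tests were two-sided and moderated, with Benjamini-Hochberg adjustment over 22626 probe sets within each of 34 comparisons, and an adjusted p under 0.05 is called. ± is the standard error of a log2 difference. The spread is pooled, so small groups are taken to vary as the others do. A listed gene is represented by its probe set with the highest mean. The number of arrays limits the precision. The method was tested on simulated data for the CPu difference in the mean of strains only, with independent arrays and a set shift common to all strains. The PFC, strain and region comparisons were not simulated. Alternatives changed the normalization, the set term, the block, the filter, the variance model and the arrays used; 3 were added after the values were seen. Sequences are from RefSeq, and all 3 genes matched.

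The rule for named genes took every Mt1, Mt2 and Mt3 probe set, the 5 most correlated probe sets of each, up to 4 genes of each list by smallest p, and Mtf1, Lcn2, Gfap, Gdpd3, Drd2 and Neurod6. Slc30a1, Xist and Eif2s3y fall outside that rule and were chosen after their values were seen. The members, lists, tests and alternatives were chosen with earlier results of these data known.

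Replicate numbers were checked for pairing. Across strains, same-numbered naive PFC arrays deviated together (12 correlations of 0.19 to 0.61), which the split between replicates 1 and 2 and replicates 3 and 4 also gives; within these sets the 6 correlations of differences were -0.41 to 0.10. In the other groups the correlations were -0.35 to 0.15.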

Additional observations from a re-analysis of the deposited data

Results flagged for a closer look

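In naive TgS PFC, replicate 2 lay away from the other 3 arrays in Mt1 (1422557_s_at), at 12.54 against 12.70 to 12.73 in the rest of the group, a gap of 0.842 of the group's range. Dixon's test at the 95% level marks about 1 in 20 groups by chance.

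The MPTP effect on Mt3 was larger in PFC than in CPu by 0.69 ± 0.12 against naive replicates 3 and 4 (limma adjusted p = 0.0011). Against naive replicates 1 and 2 the difference was 0.29 ± 0.12 (adjusted p = 0.0618).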

How the results depend on the processing

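No called difference changed sign under the alternatives run. With no set term, Mt1 (1451612_at, 0.39) and Mt2 (0.38) were not called in CPu after MPTP, nor were Mt1 (1422557_s_at, -0.19) between regions in MPTP mice and Mt1 (1451612_at, -0.0658) and Mt3 (-0.07) between naive regions with replicates 3 and 4; the counts called were 0 in CPu of TgS, in PFC of TgR against replicates 3 and 4, for the region difference of the effect with replicates 3 and 4, and for TgS and TgR against FVB/N in naive PFC. With the replicate block, Mt1 (1422557_s_at, -0.18) between regions in MPTP mice and Mt2 (0.37) in CPu lost their calls, and TgR against FVB/N in naive PFC kept 1 call. Quantile normalization took the calls of Mt1 (1422557_s_at, -0.18) between regions in MPTP mice and Mt1 (1451612_at, -0.15) between naive regions, and left 1 in PFC of TgR with replicates 3 and 4. Equal array medians took those of Mt1 (1451612_at) in PFC with replicates 1 and 2 (0.11) and between naive regions (-0.14), of Mt2 in CPu (0.39) and in PFC with replicates 3 and 4 (0.18), and of Mt3 between naive regions (-0.21), and gave 1 call each in PFC of TgR with replicates 3 and 4 and for the region difference of the effect with replicates 1 and 2.

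Each region fitted alone gave a call to Mt1 (1422557_s_at, 0.25) in CPu, 0 calls in CPu of TgS, and 1 and 0 calls for TgS and TgR against FVB/N in naive PFC. A mean for each naive pair in each strain called Mt1 (1422557_s_at, 0.25) in CPu and Mt3 (0.13) between naive regions with replicates 1 and 2, and called 1 in CPu of FVB/N, 1 in PFC of TgR with replicates 1 and 2, 2 for the region difference of the effect, 1 for TgS against FVB/N in naive CPu, and 2 each for the strain differences of the PFC effect. Without FVB/N naive PFC replicates 1 and 2, Mt1 (1451612_at, 0.17) in PFC lost its call, TgR in PFC and the region difference had 1 call each, and TgS and TgR against FVB/N in naive PFC had 0.

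Without the 6 arrays of naive PFC replicates 1 and 2, Mt1 (1422557_s_at, 0.25) and Mt3 (0.18) were called in CPu, with 1 call in CPu of FVB/N, 1 for TgS against FVB/N in CPu of each treatment, and 0 for all strain differences in naive PFC. Without the 6 arrays of replicates 3 and 4, Mt1 (1422557_s_at, 0.25) in CPu and Mt3 (0.13) between naive regions were called, with 1 call each in CPu of FVB/N, in PFC of TgR, for the region difference and for TgS against FVB/N in naive CPu, 2 for TgS against TgR in naive PFC, and 3 and 2 for the PFC effect in TgS and in TgR against FVB/N. Over all probe sets, CPu calls numbered 323, and 98 with no set term, 1028 and 617 without replicates 1 and 2 or 3 and 4, 614 with each region alone and 760 with a mean for each pair. These totals are for the mean of strains. For the other comparisons the share of all probe sets called under each alternative is not given here. The counts of metallothionein probe sets there therefore cannot be read against a background. The causes of the shifts in calls were not tested.

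Leaving out single arrays gave -0.24 to -0.15 for Mt1 (1422557_s_at) between regions in MPTP mice and -0.18 to -0.067 for Mt1 (1451612_at), -0.22 to -0.16 for Mt1 (1451612_at) between naive regions with replicates 3 and 4, 0.34 to 0.42 for Mt2 in CPu, 0.20 to 0.33 for Mt2 in PFC with replicates 3 and 4, and 0.086 to 0.20 for Mt3 between naive regions with replicates 1 and 2. Counts ran from 0 to 1 in CPu of TgS, in PFC of TgR with replicates 1 and 2, for the region difference with replicates 1 and 2 and for the PFC effect in TgR against FVB/N. They ran from 1 to 3 in PFC of TgS with replicates 1 and 2 (1 without PFC TgS MPTP replicate 1), from 2 to 4 in PFC of FVB/N with replicates 3 and 4 (2 without PFC FVB/N MPTP replicate 1), from 1 to 2 in PFC of TgR with replicates 3 and 4, from 1 to 3 for TgS and from 0 to 2 for TgR against FVB/N in naive PFC. The single MPTP TgR CPu array could not be left out. The replicate block also took the call of Mt2 for TgS against FVB/N in naive PFC, as given above.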
